A study of Gallus gallus with 8 samples.

Results

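Chromosomes 30, 31, 32 and 33 are microchromosomes of the chicken (Gallus gallus). The genes described here were all features of these chromosomes with at least 40 reads summed over the 8 libraries. This choice was made on position and read number, with no comparison between groups. Since reads are summed over libraries of unequal depth, a feature with few reads can reach the limit only through the groups where it is high. Such members are pointed out where this was seen. They were 484 of the 30862 features in the deposited table and 484 of the 1267 features on the 4 chromosomes, with 123 members on chromosome 30, 47 on chromosome 31, 59 on chromosome 32 and 255 on chromosome 33. Coordinates are on build GRCg6a, as deposited. The deposited Ensembl IDs could be paired with 0 gene names, so members are named by their position, and the levels of the targeted genes and of neural crest markers were not analysed here.

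RNA was measured in green fluorescent (GFP+) primary cells sorted from chicken trunk neural crest, the migratory embryonic cells that form peripheral nerve cells, glia and melanocytes. All cells had Cas9, with guide 1 or guide 2 against DLC1 (DLC1 knockout), PHF5A (PHF5A knockout) or SF3B1 (SF3B1 knockout), or with a scrambled guide (control, replicates 1 and 2). There was 1 library per guide and per control replicate, so the spread within a knockout holds the difference between its 2 guides, and since the labels name no separate cultures or embryo pools, p-values cover no more than the spread among these libraries. Knockouts were made in a population of cells, and the share of edited cells is not given in the sources used here. In such bulk samples, fewer cells of a type and less RNA per cell cannot be told apart.

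Bird genomes divide into large macrochromosomes and many small microchromosomes. Microchromosomes are rich in genes and in G and C bases, and their genes tend to have short introns. PHF5A and SF3B1 are subunits of the SF3b complex, through which the U2 small nuclear ribonucleoprotein recognises the branch point of an intron.

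Total counts ran from 33864758 to 34698250 in the DLC1 and PHF5A knockout libraries and from 18226753 to 19565587 in the SF3B1 knockout and control libraries. Mitochondrial counts were 8.01% to 19.6% of the total in the knockout libraries and 21.4% to 25.9% in control. Levels are therefore given in CPM, a gene's count per 1000000 counts on nuclear chromosomes, and 3 reads corresponded to 0.0949 to 0.211 CPM. Depth and mitochondrial share moved with the groups. Their part in the results was not tested. With mitochondrial counts removed before scaling, 110 members were called for DLC1, 173 for PHF5A and 71 for SF3B1 knockout, against 105, 171 and 69 with them. This removal is no test of that part, since the scaling rests on most genes and hardly changes with a few removed. Wherever a pair of values is given for a group, the value of guide 1 or replicate 1 comes before that of guide 2 or replicate 2.

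The 4 chromosomes differed in how densely they held genes with reads. Chromosome 30 had 68.0 members per Mb over 1.81 Mb, and chromosome 32 had 81.7 per Mb over 0.722 Mb. Chromosome 33 had 32.9 members per Mb over 7.75 Mb, and chromosome 31 had 7.65 per Mb over 6.15 Mb. On chromosome 31 only 11.1% of the features had at least 40 reads and 340 of 423 features had 0 reads, whereas 68.7% of the features of chromosome 30, 71.1% of chromosome 32 and 43.8% of chromosome 33 had at least 40, against 50.5% on chromosomes 1 to 10 and 52.4% over the whole table.

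The members of chromosomes 31 and 33 were separated by long stretches with almost no reads. Between chr31:2782631-4701980, a stretch of 1.92 Mb, 101 of 106 features had 0 reads and all 106 together had 14 reads. Between chr33:1327439-2760457, a stretch of 1.43 Mb, 87 of 103 features had 0 reads and all 103 together had 41. Another such stretch, chr31:4839796-5552995, held 28 features with 44 reads in all. On chromosome 30 the longest stretch without a member, chr30:1529932-1697540, was 168 kb.

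The members were short for this genome. The deposited length was that of the whole gene, introns included, in 100% of rows, and is called the span here. Counts may therefore include reads in introns, which the table does not tell from reads in exons. The median span was 5.55 kb on chromosome 30, 7.58 kb on chromosome 31, 5.29 kb on chromosome 32 and 6.14 kb on chromosome 33, against 20.3 kb on chromosomes 1 to 10, 10.2 kb on chromosomes 11 to 28 and 15.5 kb over all features with at least 40 reads. Spans of up to 3 kb made up 20.7% of the members and 10.2% of all such features. The median level per kb of span was 3.58 CPM for the members, against 0.591 CPM on chromosomes 1 to 10, 1.77 CPM on chromosomes 11 to 28 and 0.869 CPM over all features. Of the 484 members 196 (40.5%) overlapped another feature by at least 1 base on either strand, compared with 33.2% of all features with at least 40 reads, and counts of overlapping features cannot be told apart with certainty, since the strand setting of the counting is not given in the sources used here.

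Of the 484 members 476 passed the filter on low counts and were tested, namely 121, 45, 59 and 251 on chromosomes 30, 31, 32 and 33. The 8 that did not pass held 40 to 53 reads in all. Just inside the limit of 40 reads were chr33:2861515-2864205 and chr31:2568230-2574158 with 40 reads each, and just outside it were chr33:4752867-4755261 with 38 and chr33:4425133-4433684 with 37.

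The summed share of reads on chromosome 30 was lower in each knockout library than in both controls, that on chromosome 31 was higher, and those on chromosomes 32 and 33 overlapped between knockouts and control. Chromosome 30 took 0.806% and 0.860% of nuclear counts in DLC1 knockout, 0.785% and 0.936% in PHF5A knockout and 0.891% and 1.03% in SF3B1 knockout, against 1.13% and 1.05% in control. The mean over the 6 knockout libraries was 0.885% ± 0.0902, against 1.09% ± 0.0600 over the 2 controls (SD), a ratio of 0.813. Among 35 sequences with at least 20 tested genes (chromosomes and a scaffold), 2 (5.71%), chromosomes 30 and 25, had all 6 knockout libraries below both controls. A two-sided exact permutation test over the 28 splits of 8 libraries into 6 and 2 gave p = 0.0357, the smallest this design allows, and 0.0893 after Benjamini-Hochberg adjustment over the 5 shares tested (4 chromosomes and their sum). With mitochondrial counts kept in the total, the share was 0.722% to 0.845% in the knockout libraries, against 0.838% and 0.821% in control, and the groups overlapped.

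That lower share on chromosome 30 rested on a single gene. Without its member with the most reads, chr30:421924-425039, the chromosome took 0.664% and 0.700% of nuclear counts in DLC1 knockout, 0.652% and 0.775% in PHF5A knockout and 0.700% and 0.786% in SF3B1 knockout, against 0.746% and 0.699% in control. The ratio was then 0.986 and the groups overlapped (exact permutation p = 0.893).

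Chromosome 31 took 0.216% and 0.221% of nuclear counts in DLC1 knockout, 0.228% and 0.254% in PHF5A knockout and 0.234% and 0.228% in SF3B1 knockout, against 0.208% and 0.190% in control. All 6 knockout libraries were above both controls, with a ratio of means of 1.15 (exact permutation p = 0.0357, adjusted p = 0.0893). Of the 35 sequences with at least 20 tested genes, chromosomes 5, 6, 9, 11 and 20 also had all 6 knockout libraries above both controls. Chromosome 32 took 0.417% to 0.468% in the knockout libraries, against 0.418% and 0.397% in control, a ratio of 1.07 (exact permutation p = 0.179). As a share of all counts, mitochondrial ones included, chromosome 32 was higher in all 6 knockout libraries, at 0.360% to 0.399%, against 0.310% and 0.312% in control. Mitochondrial counts were 8.01% to 19.6% in the knockout libraries and 21.4% to 25.9% in control. The nuclear part of all counts was thus itself larger in each knockout library, and this measure cannot set chromosome 32 apart from it.

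Chromosome 33 held most of the members' reads. It took 3.14% and 3.31% of nuclear counts in DLC1 knockout, 2.85% and 3.60% in PHF5A knockout and 3.37% and 4.01% in SF3B1 knockout, against 3.89% and 4.27% in control. The ratio of means was 0.829, SF3B1 guide 2 lay between the controls, and the test gave p = 0.107 (exact permutation, adjusted p = 0.134). Relative to control, 162 of its 255 members had a higher and 93 a lower mean CPM in the knockout libraries, and the falls summed to -9965 CPM, against 2984 CPM for the rises. The 2 largest falls were -1378 CPM at chr33:5401141-5408432 and -1251 CPM at chr33:5216342-5226049. The median log2 CPM of the tested members of chromosome 33 was 4.91 to 5.31 in the knockout libraries, against 4.69 and 4.66 in control (exact permutation p = 0.0357, adjusted p = 0.0893). CPM values were higher in the knockouts over the whole genome, with a median log2 ratio to control of 0.21 for DLC1, 0.25 for PHF5A and 0.19 for SF3B1 knockout over tested genes with a mean above 5 CPM in both groups. The 4 chromosomes together took 4.297% to 5.71% of nuclear counts in the knockout libraries, against 5.64% and 5.90% in control, and the groups overlapped (exact permutation p = 0.107). The bounds of the Wilson 95% intervals lay within 0.0122 percentage points of these shares, the sum included, and cover counting error only.

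**Figure D1:**
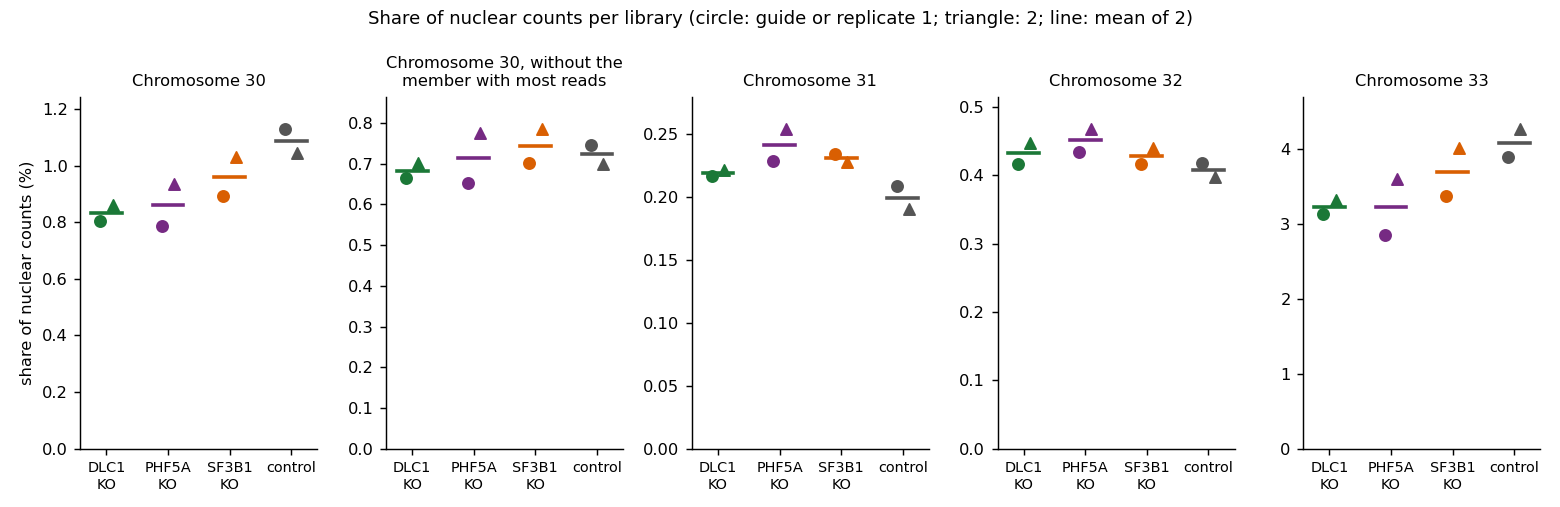
Share of nuclear counts (%, axes from 0) on each chromosome in the 8 libraries, with circles for guide or replicate 1, triangles for 2 and lines for the mean of 2. Chromosome 30 is lower in all 6 knockout libraries than in control (0.785% to 1.03%, against 1.05% and 1.13%), and without chr30:421924-425039 the groups overlap.

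Each knockout changed members in both directions. Falls outnumbered rises in DLC1 and PHF5A knockout, and rises outnumbered falls there with scaling by library size alone. Counts were fitted with edgeR across all 15619 genes that passed the filter, and a member was called at an adjusted p (Benjamini-Hochberg over all genes tested) under 0.05. Rises and falls of single members are given as log2 fold changes from that fit. In DLC1 knockout 46 members rose and 59 fell, 22.1% of those tested, against 18.2% of all genes tested (10.3% rose and 7.88% fell). In PHF5A knockout 75 rose and 96 fell, 35.9%, against 31.3% of all genes (17.9% rose and 13.4% fell). In SF3B1 knockout 37 rose and 32 fell, 14.5%, against 16.1% of all genes (11% rose and 5.03% fell). For the mean of the 3 knockouts 70 rose and 98 fell, 35.3%, against 30.8% of all genes (16.8% rose and 14% fell). The share called in either direction was thus close to that of all genes in each comparison, but the directions differed. Over all genes rises outnumbered falls in each comparison, and among the members they did so in SF3B1 knockout alone. On chromosomes 11 to 28 falls also outnumbered rises in DLC1 (503 and 458) and PHF5A knockout (851 and 824), and rises outnumbered falls in SF3B1 knockout (616 and 244).

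The balance between rises and falls depended on how libraries were scaled. The median log2 fold change over the members came to -0.11 for DLC1, -0.07 for PHF5A and 0.01 for SF3B1 knockout, against 0.10, 0.10 and 0.04 over all genes tested. When libraries were scaled by size alone, the median over all genes moved to 0.48, 0.53 and 0.49, and the members called were then 91 up and 26 down in DLC1, 145 up and 48 down in PHF5A, 120 up and 9 down in SF3B1 knockout and 145 up and 37 down for the mean. With DESeq2 the calls were 42 up and 85 down in DLC1 and 40 up and 87 down in SF3B1 knockout, and with median-ratio size factors in the edgeR fit 34 rose and 47 fell in SF3B1 knockout. Of all genes, library size alone called 25.5%, 36.7%, 25.3% and 38.4% in DLC1, PHF5A and SF3B1 knockout and for the mean. DESeq2 called 22.0% in DLC1 and 22.4% in SF3B1 knockout, and median-ratio size factors 17.0% in SF3B1 knockout. Fitted log2 fold changes were lower than the log2 ratio of mean CPM by a median of -0.18 for DLC1, -0.25 for PHF5A and -0.27 for SF3B1 knockout, over 10005 to 10072 genes of at least 5 CPM in both groups, so falls are larger and rises smaller in the fit than in the CPM values.

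The numbers called rested on single libraries. In each case below the share called of all genes tested moved in the same direction, so the changes are not particular to the members. Without DLC1 guide 1 the DLC1 count of 105 was 8, without DLC1 guide 2 it was 26, without control 1 it was 56 and without control 2 it was 16. Without SF3B1 guide 1 the SF3B1 count of 69 was 2, without either control it was 20, without PHF5A guide 1 it was 115 and without PHF5A guide 2 it was 110. The PHF5A count of 171 was 106 without PHF5A guide 1, 107 without control 1 and 88 without control 2, and the count of 168 for the mean was 83 without control 1 and 56 without control 2.

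By chromosome, the lowest medians were on chromosome 30 in each knockout and the highest on chromosome 31 in PHF5A and SF3B1 knockout. On chromosome 30, of 121 members tested, 7 rose and 16 fell in DLC1, 17 rose and 24 fell in PHF5A and 9 rose and 8 fell in SF3B1 knockout, with median log2 fold changes of -0.27, -0.22 and -0.16. On chromosome 31, of 45 tested, 4 rose and 4 fell in DLC1, 13 rose and 6 fell in PHF5A and 7 rose and 5 fell in SF3B1 knockout, with medians of -0.03, 0.20 and 0.37. On chromosome 32, of 59 tested, 4 rose and 5 fell, 6 rose and 8 fell, and 3 rose and 3 fell, and on chromosome 33, of 251 tested, 31 rose and 34 fell, 39 rose and 58 fell, and 18 rose and 16 fell, in the same order of knockouts. With scaling by library size alone, chromosome 30 had 17 rises and 7 falls in DLC1, 33 and 11 in PHF5A and 24 and 2 in SF3B1 knockout, and chromosome 31 had 6 and 0, 16 and 2, and 14 and 0. Differences between chromosomes were not tested.

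The 3 comparisons share the same 2 control libraries, so their values are given side by side and their likeness is not a result. In all 3 knockouts 14 members rose and 21 fell, against 4.76% and 2.4% of all genes tested. Calls in opposite directions were seen in 0 members and were not counted over all genes, so that 0 has no background. All 6 knockout libraries were above both controls in CPM for 117 of 476 members and below both for 68, against 29.9% and 8.32% of all genes.

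**Figure D2:**
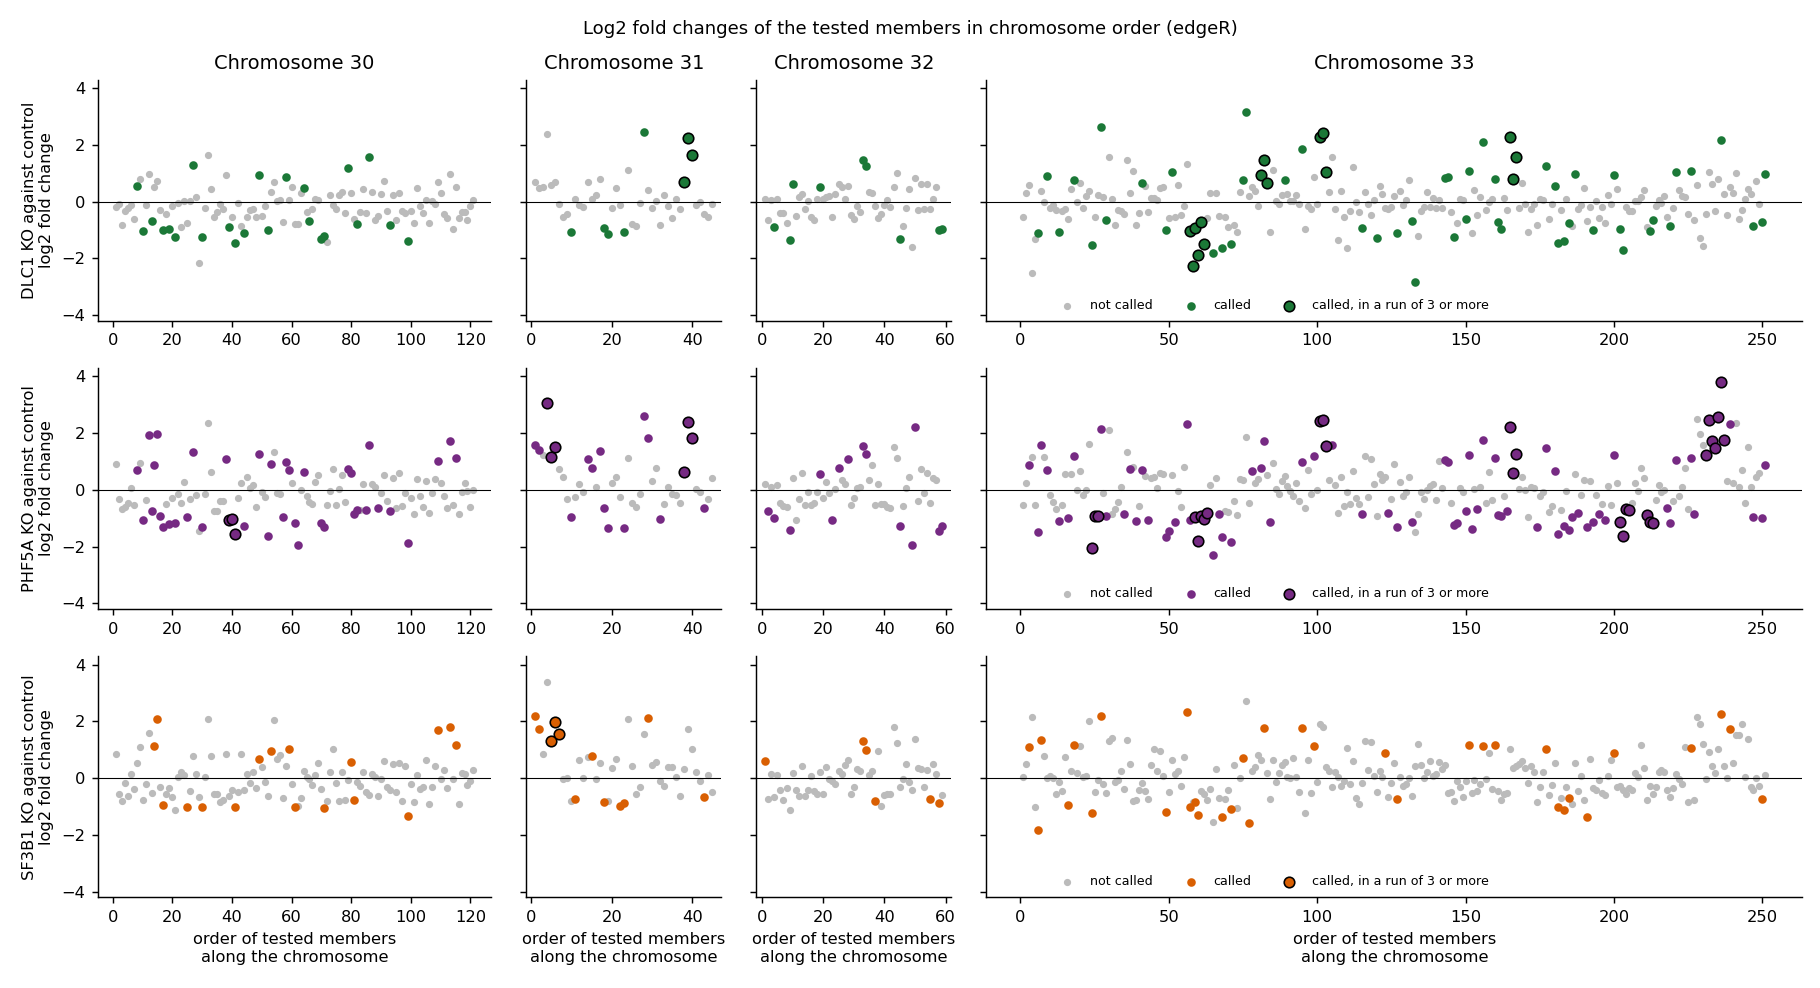
Fitted log2 fold change (y axis) of the 476 tested members by their order along each chromosome (x axis), in 1 row per knockout against control. Grey points were not called, coloured points were called and outlined points were called in a run of at least 3 neighbours of one direction. Runs are seen mostly on chromosome 33, with 18 members in runs for DLC1, 37 for PHF5A and 3 for SF3B1 knockout. The DLC1 and PHF5A numbers include runs of chromosome 31 with a member that reached 40 reads only through the libraries where it is high.

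On chromosome 30 the gene with the most reads fell in all 3 knockouts. chr30:421924-425039 had 1419.5 and 1596 CPM in DLC1 knockout, 1336 and 1614 CPM in PHF5A knockout and 1906 and 2447 CPM in SF3B1 knockout, against 3842 and 3460.3 CPM in control. Every knockout library was below both controls, with SF3B1 guide 2 the closest to them. The log2 fold change was -1.45 ± 0.23 (SE; adjusted p = 0.00626) for DLC1, -1.56 ± 0.23 (SE; adjusted p = 0.00205) for PHF5A and -1.002 ± 0.23 (SE; adjusted p = 0.0199) for SF3B1 knockout, by edgeR. In PHF5A knockout the call was kept in all 15 alternatives tried, in DLC1 knockout it was lost without guide 1 (adjusted p = 0.0564), and in SF3B1 knockout it was lost without guide 1 or without either control (adjusted p up to 0.158).

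Its neighbours chr30:416785-420393 and chr30:418476-421792, which overlap each other, fell with it in PHF5A knockout, so that 3 adjacent members of 8.26 kb were lower. chr30:416785-420393 had 43.1 and 49.8 CPM in DLC1 knockout, 35.6 and 51.4 CPM in PHF5A knockout and 47.4 and 70.0 CPM in SF3B1 knockout, against 74.7 and 78.3 CPM in control. chr30:418476-421792 had 40.3 and 42.3 CPM in PHF5A knockout, against 87.5 and 53.2 CPM in control. All 6 knockout libraries were below both controls at the first of them, and at the second the PHF5A libraries were below both. The log2 fold changes were -1.07 ± 0.26 (SE; adjusted p = 0.0123) and -1.01 ± 0.26 (SE; adjusted p = 0.0165). The call of the first was lost without PHF5A guide 1 or control 2 and that of the second without PHF5A guide 1, without control 1 or with scaling by library size alone.

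The next 2 members of chromosome 30 by level passed the test in none of the knockouts. chr30:46815-75996 had 634 and 576 CPM in DLC1 knockout, 724 and 725 CPM in PHF5A knockout and 786 and 743 CPM in SF3B1 knockout, against 614 and 545 CPM in control, and the groups overlapped. chr30:1194033-1205815 had 493 and 565 CPM in DLC1 knockout, 551 and 513 CPM in PHF5A knockout and 435 and 441 CPM in SF3B1 knockout, against 378 and 301 CPM in control, with all 6 knockout libraries above control, but its adjusted p was 0.0962, 0.115 and 0.706 in DLC1, PHF5A and SF3B1 knockout.

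Another member of chromosome 30, chr30:1175541-1187200, which overlaps 1 other feature, fell by over 2-fold in the fit in all 3 knockouts. It had 26.3 and 38.1 CPM in DLC1 knockout, 21.3 and 27.0 CPM in PHF5A knockout and 25.5 and 44.3 CPM in SF3B1 knockout, against 95.1 and 54.8 CPM in control. The controls were above every knockout library, although they differed from each other more than the knockouts did in CPM, if not as a ratio. Its log2 fold change was -1.38 for DLC1, -1.88 ± 0.35 (SE; adjusted p = 0.00444) for PHF5A and -1.35 for SF3B1 knockout, and the SF3B1 call was lost without SF3B1 guide 1 or control 1 (adjusted p up to 0.175). In the other direction, chr30:1405458-1409874 had 9.28 and 4.79 CPM in DLC1 knockout, 10.97 and 13.6 CPM in PHF5A knockout and 13.8 and 12.5 CPM in SF3B1 knockout, against 2.96 and 3.21 CPM in control, rose by 1.82 ± 0.32 (SE; adjusted p = 0.009) in SF3B1 knockout and 1.74 in PHF5A knockout, and lost the SF3B1 call without guide 1 (adjusted p = 0.0584).

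One gene of chromosome 30 separated SF3B1 knockout from the other knockouts. chr30:1057888-1059898, which overlaps 2 other features, had 29.2 and 26.7 CPM in DLC1 knockout, 21.6 and 36.6 CPM in PHF5A knockout and 6.83 and 6.11 CPM in SF3B1 knockout, against 7.75 and 8.66 CPM in control. It was high in the 4 DLC1 and PHF5A knockout libraries and low in the SF3B1 knockout and control libraries. Total counts split the libraries in the same way, at 33864758 to 34698250 and 18226753 to 19565587. The part of depth in this pattern was not tested. This gene rose by 1.58 ± 0.27 (SE; adjusted p = 0.00747) in DLC1 and 1.57 ± 0.27 (SE; adjusted p = 0.00333) in PHF5A knockout. It was lower in SF3B1 than in DLC1 knockout (log2 difference -2.19, adjusted p = 0.00970) and than in PHF5A knockout (log2 difference -2.18, adjusted p = 0.0106). These differences between knockouts were lost without SF3B1 guide 1 or guide 2, and the one from DLC1 also without DLC1 guide 2 (adjusted p up to 0.103).

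Members over 100 kb numbered 7 on chromosome 31, against 0, 1 and 2 on chromosomes 30, 32 and 33. The first member of chromosome 33, chr33:847402-1327438, spanned 480 kb, held 50 reads and was not tested. The 7 of chromosome 31 were in its first part and spanned 204 to 496 kb each. They lay between 231250 and 1868776, where the first 5 overlap in a chain and the last 2 overlap each other, and the same region held 104 other features, of which 103 had 0 reads. Each of the 7 overlapped 16 to 37 features. Counts of overlapping features cannot be told apart with certainty, so 0 reads there need not mean no RNA. The summed level of the 7 members was 23.3 and 12.96 CPM in DLC1 knockout, 22.5 and 41.7 CPM in PHF5A knockout and 44.8 and 39.0 CPM in SF3B1 knockout, against 12.2 and 10.96 CPM in control. Each knockout library was above both controls, and PHF5A guide 2 and both SF3B1 knockout libraries were the highest. Of the 7 members 0 rose for DLC1, 5 for PHF5A and 5 for SF3B1 knockout (background 10.3%, 17.9% and 11% of all genes tested, for rises alone). With other scalings 3 to 7 rose in PHF5A and 5 to 6 in SF3B1 knockout, and 0 in DLC1 knockout. In PHF5A knockout 3 of the rises were adjacent (664577 to 1659141), and in SF3B1 knockout 3 (761961 to 1868776), its 1 run of neighbours. Because the spans overlap, these 7 are not independent of each other.

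The longest of them, chr31:1163142-1659141, had 3.85 and 2.39 CPM in DLC1 knockout, 4.33 and 7.12 CPM in PHF5A knockout and 8.13 and 7.82 CPM in SF3B1 knockout, against 2.04 and 1.33 CPM in control. The rise was 1.52 ± 0.37 (SE; adjusted p = 0.013) in PHF5A and 1.98 ± 0.37 (SE; adjusted p = 0.0107) in SF3B1 knockout, while in DLC1 knockout the value was 0.70 ± 0.37 (SE; adjusted p = 0.206). The PHF5A call was lost without PHF5A guide 2 or control 2 and the SF3B1 call without SF3B1 guide 1 or control 2 (adjusted p up to 0.0893 and 0.0664). Its neighbour chr31:1627709-1868776 had 4.53 and 2.60 CPM in DLC1 knockout, 6.26 and 6.90 CPM in PHF5A knockout and 13.3 and 10.5 CPM in SF3B1 knockout, against 3.45 and 3.21 CPM in control. Here SF3B1 knockout was the highest group with either guide, and the rise in SF3B1 knockout was 1.57 ± 0.29 (SE; adjusted p = 0.0108), a call lost without SF3B1 guide 1 or control 2 (adjusted p up to 0.0915). It was the 1 member of the 7 called between SF3B1 and DLC1 knockout, with a log2 difference of 1.66 (adjusted p = 0.0217).

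chr31:761961-1143368 rose in PHF5A and SF3B1 knockout, and chr31:664577-894140 in PHF5A knockout. The first had 4.304 and 2.29 CPM in DLC1 knockout, 3.83 and 6.31 CPM in PHF5A knockout and 5.64 and 5.78 CPM in SF3B1 knockout, against 1.83 and 1.96 CPM in control, and its rises of 1.17 and 1.33 were lost with limma-voom and on leaving out either SF3B1 guide or either control, the PHF5A call also without PHF5A guide 2. The second had 42 reads in PHF5A knockout, 31 in SF3B1 knockout and 2 in control, a ratio of CPM of 10.2 (95% counting interval 2.65 to 86.8) for PHF5A and 13.4 (3.42 to 116) for SF3B1 knockout against control. With so few control reads its call in PHF5A knockout (adjusted p = 0.0492) was lost in 11 of the 15 alternatives, left-out libraries among them. At its control level chr31:664577-894140 would have stayed under the limit of 40 reads. It is therefore a member only through the groups where it is high. Its rise, and the PHF5A run that includes it, are descriptions.

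**Figure D3:**
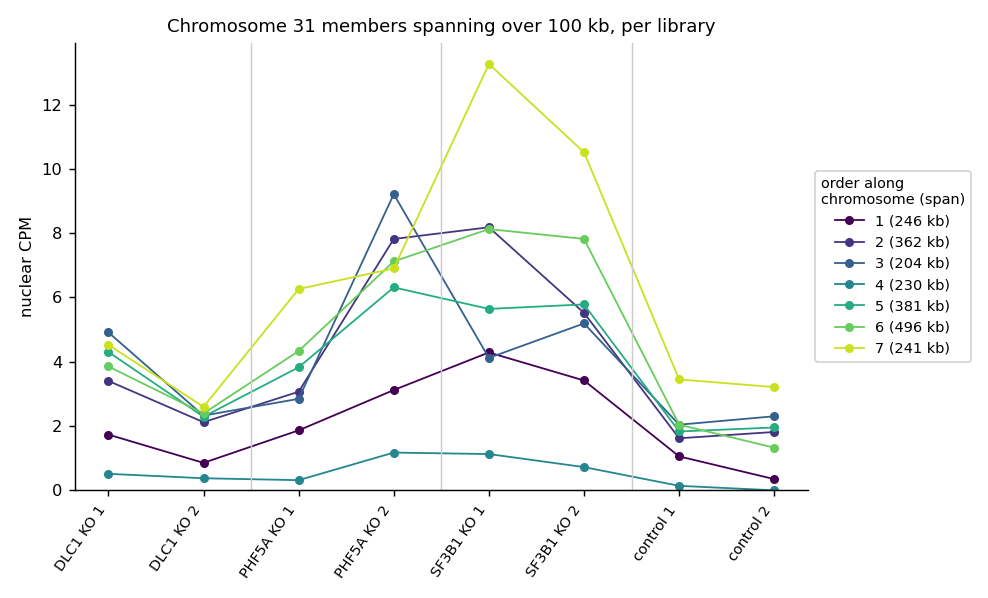
Level (nuclear CPM, y axis from 0) of the 7 chromosome 31 members of over 100 kb in each library, with 1 line per member in their order along the chromosome. Lines join libraries only to follow a member. The SF3B1 knockout libraries and PHF5A guide 2 are the highest, and the summed level is 44.8 and 39.0 CPM in SF3B1 knockout, against 12.2 and 10.96 CPM in control.

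Further along chromosome 31, 3 adjacent members between 5636946 and 5651012 rose in DLC1 and PHF5A knockout. chr31:5636946-5647370 had 231 and 289 CPM in DLC1 knockout, 252 and 269 CPM in PHF5A knockout and 207 and 220.4 CPM in SF3B1 knockout, against 156 and 128 CPM in control, with each knockout library above both controls. It rose by 0.70 ± 0.19 (SE; adjusted p = 0.0307) in DLC1 and 0.63 ± 0.19 (SE; adjusted p = 0.0307) in PHF5A knockout. Both calls were lost on leaving out either control, either SF3B1 guide or either guide of the knockout itself. The PHF5A call was also lost with median-ratio size factors. The next members, chr31:5647693-5649339 and chr31:5649363-5651012, were at 0.592 to 1.17 and 1.18 to 2.56 CPM in the knockout libraries, against 0.140 to 0.211 and 0.419 to 0.704 CPM in control, and rose by 2.24 and 1.65 in DLC1 and 2.40 and 1.83 in PHF5A knockout. Those in PHF5A knockout were lost without control 2, and those in DLC1 knockout without either control or either DLC1 guide. At its control level chr31:5647693-5649339 would also have stayed under the limit of 40 reads. It is a member only through the libraries where it is high. Its rises, and the runs that include it, are descriptions. Apart from the run, chr31:4767057-4782237 had 13.2 and 6.29 CPM in DLC1 knockout, 18.3 and 36.2 CPM in PHF5A knockout and 33.4 and 32.5 CPM in SF3B1 knockout, against 5.42 and 7.26 CPM in control, and rose by 1.85 ± 0.39 (SE; adjusted p = 0.00731) in PHF5A and 2.11 ± 0.39 (SE; adjusted p = 0.0107) in SF3B1 knockout. The SF3B1 call was lost without SF3B1 guide 1 or control 1 (adjusted p up to 0.0554). In DLC1 knockout, where guide 1 was above both controls and guide 2 lay between them, the value was 0.42 ± 0.39 (SE; adjusted p = 0.471).

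The 3 members of chromosome 31 with the highest levels did not move in all knockouts. chr31:2259748-2309890 had 397 to 548 CPM in the knockout libraries, against 444 and 432 CPM in control, and chr31:4753509-4760759 had 203 to 296 CPM, against 248 and 222 CPM. Neither was called. chr31:2459748-2470598 had 227 and 144 CPM in DLC1 knockout, 291 and 329 CPM in PHF5A knockout and 360.2 and 263 CPM in SF3B1 knockout, against 176 and 126 CPM in control, and rose by 0.79 ± 0.23 (SE; adjusted p = 0.0252) in PHF5A and 0.77 ± 0.23 (SE; adjusted p = 0.0442) in SF3B1 knockout. The PHF5A call was lost without either PHF5A guide or without control 2, and the SF3B1 call without either SF3B1 guide or either control. The SF3B1 call was also lost with median-ratio size factors.

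Chromosome 32 held no run of called neighbours in any comparison. Its member of highest level, chr32:346305-387513, had 742 and 638 CPM in DLC1 knockout, 945 and 675 CPM in PHF5A knockout and 647 and 482 CPM in SF3B1 knockout, against 482 and 315 CPM in control. SF3B1 guide 2 was at the level of control 1, and the rise in PHF5A knockout, 0.78 ± 0.23 (SE; adjusted p = 0.03), was lost without DLC1 guide 1, PHF5A guide 1 or control 2 (adjusted p up to 0.212). chr32:57976-70052 had 339 and 366 CPM in DLC1 knockout, 297 and 408 CPM in PHF5A knockout and 322 and 392 CPM in SF3B1 knockout, against 431 and 549 CPM in control, and all 6 knockout libraries were below both controls. Its fall of -0.73 ± 0.23 (SE; adjusted p = 0.0351) in PHF5A knockout was lost without PHF5A guide 1 or control 2 and with scaling by library size alone. chr32:92484-98563 had 474 to 606 CPM in the knockout libraries, against 411 and 415 CPM in control, and was not called (adjusted p 0.449 to 0.697).

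Chromosome 33 held most of the runs. A run was taken as at least 3 tested members next to each other that were called in one direction. In DLC1 knockout 18 members lay in 5 runs, 3.78% of those tested, against 0.941% of all genes. In PHF5A knockout 37 lay in 10 runs (7.77%, against 3.25%), in SF3B1 knockout 3 lay in 1 run (0.630%, against 0.896%), and for the mean of the knockouts 29 lay in 8 runs (6.09%, against 2.75%). Runs describe the fit and were not tested. The totals for DLC1, PHF5A and the mean include the 3 members of chr31:5636946-5651012. Those for PHF5A and the mean also include the run of chromosome 31 that starts at 664577, with 3 and 4 members. Each of these runs holds a member that reached 40 reads only through the libraries where it is high. The totals set beside all genes are therefore descriptions. The counts changed with single libraries: the DLC1 count was 0 without either DLC1 guide or control 2 and 7 without control 1, and the PHF5A count was 19 without PHF5A guide 1, 6 without control 1 and 10 without control 2. The SF3B1 count was 0 without either SF3B1 guide or either control, and that of the mean was 3 without either control, 13 without SF3B1 guide 1, 18 without DLC1 guide 1 and 51 without PHF5A guide 2. Over the 8 libraries, the median Pearson correlation of log2 CPM between neighbouring members was 0.20, and 0.18 over those that do not overlap, compared with 0.06 for members 20 genes apart. The same medians over all nuclear genes were 0.26 and 0.15, and these are descriptions over 8 libraries that share 4 groups.

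The longest falling run lay between 5216342 and 5430816 and comprised 7 members for the mean of the 3 knockouts. Its first 6 members were also a run in DLC1 knockout and its last 5 in PHF5A knockout. The first 2 members were separated from the last 5 by a stretch of 154 kb, chr33:5233591-5387850. That stretch held 11 features with 117 reads in all, and no member. In PHF5A knockout the run covered 43.0 kb, against 214 kb for the mean. Of the 7 members 6 fell for DLC1, 6 for PHF5A and 3 for SF3B1 knockout, and with scaling by library size alone 5, 4 and 2. chr33:5401141-5408432 (ENSGALG00000030002) had 711 and 664 CPM in DLC1 knockout, 570.4 and 928 CPM in PHF5A knockout and 795 and 1369 CPM in SF3B1 knockout, against 2259 and 2175 CPM in control. The controls were above every knockout library, with SF3B1 guide 2 the highest of the knockouts. The log2 fold change was -1.87 ± 0.31 (SE; adjusted p = 0.007) for DLC1, -1.81 ± 0.31 (SE; adjusted p = 0.00329) for PHF5A and -1.29 ± 0.30 (SE; adjusted p = 0.0232) for SF3B1 knockout. The PHF5A call was kept in all 15 alternatives, whereas the DLC1 call was lost without DLC1 guide 1 (adjusted p = 0.0588) and the SF3B1 call without SF3B1 guide 1 or either control (adjusted p up to 0.145). This member overlaps 2 features, among them the neighbour in the run, chr33:5387851-5402416.

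At the start of the run, chr33:5216342-5226049, which overlaps no other feature, had 1653 and 1522 CPM in DLC1 knockout, 1671 and 1603 CPM in PHF5A knockout and 1504 and 1885 CPM in SF3B1 knockout, against 3072 and 2709.6 CPM in control. The 6 knockout libraries lay close together and far below the controls. The fall was -1.05 ± 0.20 (SE; adjusted p = 0.011) for DLC1, -1.07 ± 0.20 (SE; adjusted p = 0.0048) for PHF5A and -1.03 ± 0.20 (SE; adjusted p = 0.0129) for SF3B1 knockout. In PHF5A knockout the call was kept in all 15 alternatives, in DLC1 it was lost without either DLC1 guide or control 2 and in SF3B1 knockout without SF3B1 guide 1 or control 1.

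The other members of the run were lower in DLC1 and PHF5A knockout than in control at quite different levels. chr33:5387851-5402416 had 629 and 606 CPM in DLC1 knockout, 559.6 and 719 CPM in PHF5A knockout and 638 and 766 CPM in SF3B1 knockout, against 1055 and 1036 CPM in control, and fell in all 3 knockouts, with log2 fold changes of -0.94, -0.96 and -0.83 in DLC1, PHF5A and SF3B1. chr33:5409311-5422661 had 481 and 533 CPM in DLC1 knockout, 453 and 477 CPM in PHF5A knockout and 610.5 and 698 CPM in SF3B1 knockout, against 827 and 661 CPM in control, and fell with a log2 fold change of -0.73 in DLC1 and -0.92 in PHF5A knockout, with SF3B1 guide 2 above control 2. chr33:5425545-5426967 had 6.07 and 6.36 CPM in DLC1 knockout, 6.64 and 11.4 CPM in PHF5A knockout and 9.20 and 15.7 CPM in SF3B1 knockout, against 15.5 and 15.4 CPM in control, and fell with a log2 fold change of -1.49 in DLC1 and -1.03 in PHF5A knockout, with SF3B1 guide 2 at the level of control. chr33:5429147-5430816 had 59.4 to 96.0 CPM in the knockout libraries, against 118 and 108 CPM in control, and fell in PHF5A knockout, with a log2 fold change of -0.82. chr33:5230013-5233590 was near the floor of 3 reads, at 0.137 to 0.621 CPM in the knockout libraries, against 0.704 and 1.12 CPM in control. It fell in DLC1 knockout, with a log2 fold change of -2.25, and was not called in PHF5A knockout. This member alone joins the first member of the run to the last 5. Its call for the mean of the 3 knockouts was lost in 5 of the 15 alternatives. Of the 5 PHF5A calls of the run, 3 were kept in all 15 alternatives, and of the 6 DLC1 calls 0 were, the DLC1 calls being lost without DLC1 guide 1 in each case.

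Past the end of that run 2 more genes fell in all 3 knockouts. chr33:5490953-5494104 had 164 and 205 CPM in DLC1 knockout, 128 and 179 CPM in PHF5A knockout and 226 and 289 CPM in SF3B1 knockout, against 512 and 412 CPM in control, and its log2 fold change was -1.50 ± 0.24 (SE; adjusted p = 0.00669), -1.84 ± 0.24 (SE; adjusted p = 0.00166) and -1.10 ± 0.24 (SE; adjusted p = 0.0181) in DLC1, PHF5A and SF3B1 knockout. Both controls were above every knockout library, and the DLC1 call was lost without DLC1 guide 1 (adjusted p = 0.0571). chr33:5469123-5483560 had 3.05 and 1.98 CPM in DLC1 knockout, 1.77 and 3.45 CPM in PHF5A knockout and 2.99 and 3.42 CPM in SF3B1 knockout, against 6.41 and 7.26 CPM in control, and fell with a log2 fold change of -1.63, -1.64 and -1.36. Its SF3B1 call was lost without either SF3B1 guide, either control or with scaling by library size alone, and its DLC1 call without either DLC1 guide or control 2.

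Over the 10 tested members between 5409311 and 5491327 the median log2 fold change came to -0.66 for DLC1, -0.82 for PHF5A and -0.63 for SF3B1 knockout. The next 10 members, between 5490953 and 5629610, had medians of 0.28, 0.30 and 0.32.

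The longest rising run was seen in PHF5A knockout near the end of chromosome 33, where 7 members between 7601086 and 7638408, over 37.3 kb, rose together. None of the 7 overlapped another feature, and all 7 rose in PHF5A knockout under each of the 4 scalings, against 1 or 2 of them in DLC1 and in SF3B1 knockout. The log2 fold changes were 1.22 to 3.80, and at each of the 7 PHF5A guide 2 was above guide 1. chr33:7633057-7634604 (ENSGALG00000060092) had 4.05 and 2.87 CPM in DLC1 knockout, 8.57 and 13.6 CPM in PHF5A knockout and 4.63 and 3.15 CPM in SF3B1 knockout, against 0.845 and 0.489 CPM in control. It rose in all 3 knockouts, by 2.18 ± 0.42 (SE; adjusted p = 0.0108) for DLC1, 3.80 ± 0.41 (SE; adjusted p = 0.00104) for PHF5A and 2.27 ± 0.42 (SE; adjusted p = 0.0107) for SF3B1 knockout, and its PHF5A call was kept in all 15 alternatives.

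The members of the run with more reads had their high values in PHF5A knockout. chr33:7612272-7616683 had 46.4 and 39.4 CPM in DLC1 knockout, 78.9 and 116 CPM in PHF5A knockout and 41.3 and 38.1 CPM in SF3B1 knockout, against 26.1 and 23.5 CPM in control, and rose in PHF5A knockout by 1.73 ± 0.21 (SE; adjusted p = 0.00126). chr33:7634964-7638408 had 41.4 and 25.7 CPM in DLC1 knockout, 60.6 and 137 CPM in PHF5A knockout and 41.7 and 37.1 CPM in SF3B1 knockout, against 21.8 and 27.0 CPM in control, and rose by 1.76 ± 0.35 (SE; adjusted p = 0.00566). chr33:7601086-7604242 had 25.1 and 16.1 CPM in DLC1 knockout, 42.7 and 91.6 CPM in PHF5A knockout and 29.7 and 27.8 CPM in SF3B1 knockout, against 19.9 and 28.3 CPM in control, and rose by 1.22 ± 0.34 (SE; adjusted p = 0.0233). In these 3 genes both PHF5A libraries were above all others. DLC1 and SF3B1 knockout were also above control at the first of them, and DLC1 knockout overlapped control at the others. The remaining 3 members had lower levels. chr33:7607106-7609875 was at 2.21 and 4.295 CPM in PHF5A knockout, against 0.423 and 0.559 CPM in control. chr33:7623352-7624843 was at 3.45 and 7.93 CPM in PHF5A knockout, against 1.62 and 1.82 CPM in control, and chr33:7629580-7631107 was at 1.52 and 3.01 CPM in PHF5A knockout, against 0.0704 and 0.559 CPM in control.

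Of the 7 PHF5A calls 4 were kept in all 15 alternatives. Those of chr33:7601086-7604242, chr33:7623352-7624843 and chr33:7629580-7631107 were lost without PHF5A guide 2 or control 1. That of chr33:7623352-7624843 was also lost with limma-voom and without control 2. The difference between knockouts was called at 1 of the 7, chr33:7612272-7616683, which was lower in SF3B1 than in PHF5A knockout (log2 difference -1.31, adjusted p = 0.0240), a call lost without either SF3B1 guide or either DLC1 guide (adjusted p up to 0.143). The run was therefore called in PHF5A knockout, and 6 of its members were not shown to differ between PHF5A and SF3B1 knockout, nor any of the 7 between PHF5A and DLC1 knockout. One member further on, chr33:7643750-7661219 had 9.73 and 5.71 CPM in DLC1 knockout, 15.5 and 41.2 CPM in PHF5A knockout and 21.6 and 16.3 CPM in SF3B1 knockout, against 3.80 and 5.59 CPM in control, and rose by 2.34 ± 0.45 (SE; adjusted p = 0.00521) in PHF5A and 1.74 ± 0.45 (SE; adjusted p = 0.0309) in SF3B1 knockout. Over the 10 tested members from 7601086 to 7664368, the median log2 fold change came to 0.40 for DLC1, 1.74 for PHF5A and 0.47 for SF3B1 knockout.

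**Figure D4:**
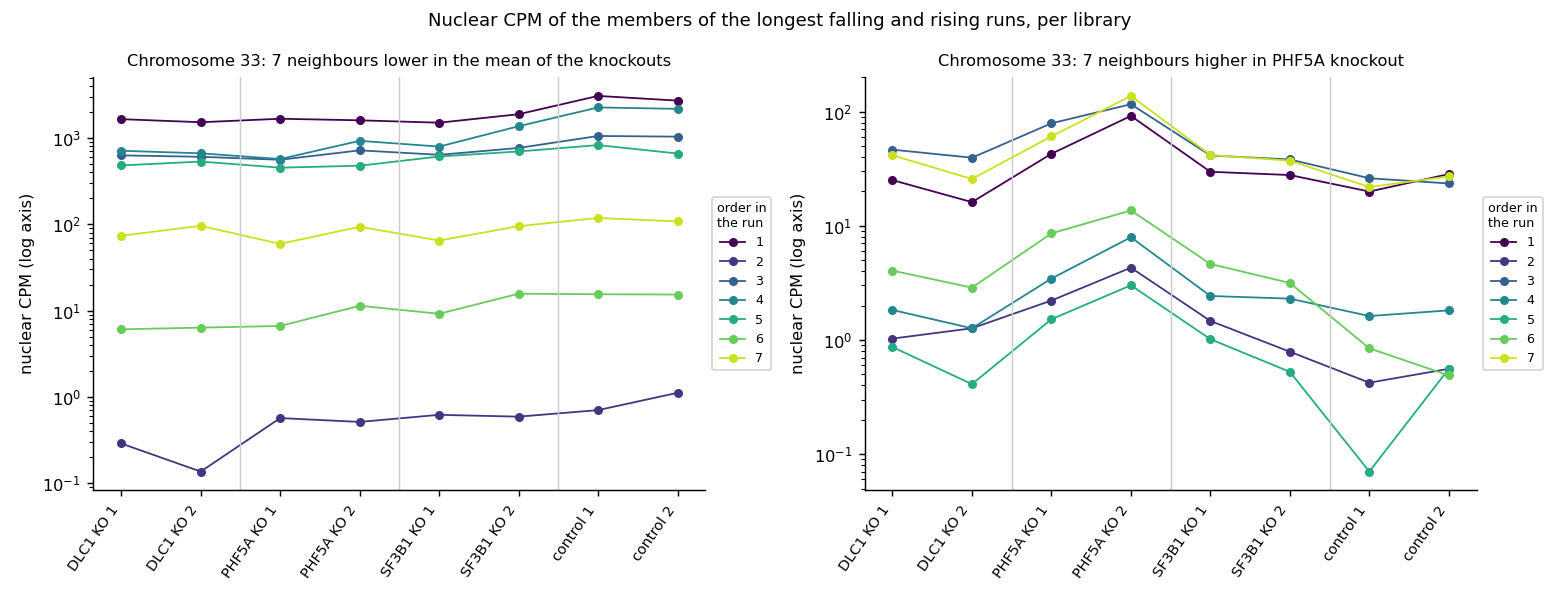
Level (nuclear CPM, log axis) per library of the 7 members of the longest falling run (left, 5216342 to 5430816) and of the longest rising run (right, 7601086 to 7638408) of chromosome 33, numbered in their order. Lines join libraries only to follow a member. In the falling run both controls are above all knockout libraries for 5 of the 7 members, and in the rising run PHF5A guide 2 is the highest for all 7.

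A further 3 runs of chromosome 33 rose. Between 6197472 and 6234944, 3 members rose in DLC1 and PHF5A knockout. chr33:6214141-6217420 (ENSGALG00000061879) had 9.86 and 12.1 CPM in DLC1 knockout, 17.7 and 6.20 CPM in PHF5A knockout and 9.71 and 5.65 CPM in SF3B1 knockout, against 2.75 and 0.908 CPM in control. All 6 knockout libraries were above both controls, although guide 1 and guide 2 of PHF5A differed from each other by more than SF3B1 guide 2 differed from control 1. It rose by 2.42 ± 0.57 (SE; adjusted p = 0.0187) in DLC1 and 2.47 ± 0.57 (SE; adjusted p = 0.0104) in PHF5A knockout, and its value in SF3B1 knockout was 1.81 ± 0.57 (SE; adjusted p = 0.0557). The neighbour chr33:6197472-6208486 had 6.30 and 7.93 CPM in DLC1 knockout, 12.3 and 4.41 CPM in PHF5A knockout and 8.41 and 3.42 CPM in SF3B1 knockout, against 1.69 and 0.908 CPM in control, and rose by 2.28 and 2.43 in DLC1 and PHF5A knockout. The PHF5A calls of both were lost without PHF5A guide 1 or control 2, and the DLC1 calls without either DLC1 guide or control 2. The DLC1 call of chr33:6197472-6208486 was also lost without control 1. The third member, chr33:6232615-6234944, had 2.14 to 5.21 CPM in the knockout libraries, against 1.20 and 1.54 CPM in control. Its DLC1 call, on which the run of 3 in DLC1 knockout depends, was lost in 10 of the 15 alternatives, among them median-ratio size factors, DESeq2, limma-voom and leaving out any 1 library other than PHF5A guide 2. Its PHF5A call was lost without control 1.

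Between 6898744 and 6920281, 3 members that overlap no other feature rose in DLC1 and PHF5A knockout. chr33:6916661-6920281 had 88.9 and 125 CPM in DLC1 knockout, 77.5 and 103 CPM in PHF5A knockout and 51.8 and 51.7 CPM in SF3B1 knockout, against 36.7 and 27.2 CPM in control. Every knockout library was above both controls, and the DLC1 and PHF5A libraries were above the SF3B1 libraries. It rose by 1.57 ± 0.24 (SE; adjusted p = 0.00574) in DLC1 and 1.26 ± 0.24 (SE; adjusted p = 0.00512) in PHF5A knockout, and both calls were kept in all 15 alternatives. chr33:6898744-6901383 had 9.41 and 10.2 CPM in DLC1 knockout, 13.1 and 6.90 CPM in PHF5A knockout and 5.31 and 3.48 CPM in SF3B1 knockout, against 2.18 and 1.40 CPM in control, and rose by 2.27 in DLC1 and 2.23 in PHF5A knockout. chr33:6901508-6912687 had 141 and 171 CPM in DLC1 knockout, 151 and 131 CPM in PHF5A knockout and 131 and 108 CPM in SF3B1 knockout, against 89.9 and 67.4 CPM in control, and it rose by 0.82 in DLC1 and 0.60 in PHF5A knockout. The DLC1 call was lost without either DLC1 guide or control 2. The PHF5A call was lost in 8 of the 15 alternatives, among them median-ratio size factors, DESeq2 and leaving out PHF5A guide 1, DLC1 guide 1, either SF3B1 guide or either control. Immediately before this run, chr33:6894660-6897632, one of the 3 members with the highest level on the chromosome, had 1896 and 2434 CPM in DLC1 knockout, 1582 and 1780.2 CPM in PHF5A knockout and 1816 and 2127 CPM in SF3B1 knockout, against 2482 and 2202 CPM in control. It overlapped between groups and fell with a log2 fold change of -0.73 ± 0.22 (SE; adjusted p = 0.0325) in PHF5A knockout, a call lost without either PHF5A guide, either control or with scaling by library size alone.

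Between 5629855 and 5725015, 3 members rose in DLC1 knockout. chr33:5644930-5704869 had 56.2 and 37.4 CPM in DLC1 knockout, 71.8 and 45.7 CPM in PHF5A knockout and 73.8 and 48.4 CPM in SF3B1 knockout, against 17.5 and 12.1 CPM in control. All knockout libraries were at least 2-fold above both controls, and it rose in all 3 knockouts, by 1.47 ± 0.29 (SE; adjusted p = 0.0112) for DLC1, 1.74 ± 0.29 (SE; adjusted p = 0.00303) for PHF5A and 1.78 ± 0.29 (SE; adjusted p = 0.00792) for SF3B1 knockout. The DLC1 call was lost without DLC1 guide 1 or control 2 and the SF3B1 call without SF3B1 guide 1. Its neighbours chr33:5629855-5641661 and chr33:5705222-5725015 had 70.3 to 111 and 154 to 241 CPM in the knockout libraries, against 33.9 to 55.6 and 116 to 132 CPM in control. Their rises in DLC1 knockout were 0.93 and 0.67, and both calls were lost without either DLC1 guide or control 2. The call of the second was also lost without control 1 or either SF3B1 guide.

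A further 3 runs fell in PHF5A knockout. chr33:3411991-3414736 (ENSGALG00000035060) led the first, between 3411991 and 3426961, and had 15.3 and 17.7 CPM in DLC1 knockout, 8.82 and 15.7 CPM in PHF5A knockout and 19.3 and 24.2 CPM in SF3B1 knockout, against 40.6 and 43.9 CPM in control. It was lower than control in every knockout library and fell with a log2 fold change of -1.54 ± 0.29 (SE; adjusted p = 0.0098) for DLC1, -2.04 ± 0.29 (SE; adjusted p = 0.00183) for PHF5A and -1.22 ± 0.29 (SE; adjusted p = 0.0225) for SF3B1 knockout, the PHF5A call being kept in all 15 alternatives. The DLC1 call was lost without DLC1 guide 1 or control 2, and the SF3B1 call without SF3B1 guide 1 or either control. Its neighbours chr33:3416301-3420623 and chr33:3422596-3426961 fell with a log2 fold change of -0.91 and -0.93 in PHF5A knockout. At the second of them PHF5A knockout stood alone, with 9.12 and 9.09 CPM in DLC1 knockout, 4.21 and 4.18 CPM in PHF5A knockout and 8.18 and 7.43 CPM in SF3B1 knockout, against 6.69 and 6.77 CPM in control. That call was lost without either control and with scaling by library size alone.

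The run between 7194363 and 7211285 held 4 members that each overlap another feature. chr33:7198879-7199799 had 29.6 and 36.8 CPM in DLC1 knockout, 27.4 and 44.9 CPM in PHF5A knockout and 64.0 and 105 CPM in SF3B1 knockout, against 97.3 and 92.3 CPM in control. DLC1 and PHF5A knockout were low and SF3B1 knockout overlapped control, with falls of -1.69 ± 0.31 (SE; adjusted p = 0.00874) in DLC1 and -1.64 ± 0.30 (SE; adjusted p = 0.00451) in PHF5A knockout. Total counts also set DLC1 and PHF5A knockout apart from SF3B1 knockout and control, and the part of depth was not tested. chr33:7194363-7198224 had 38.4 and 41.8 CPM in DLC1 knockout, 32.5 and 41.9 CPM in PHF5A knockout and 60.2 and 74.99 CPM in SF3B1 knockout, against 65.1 and 72.8 CPM in control, the same order of groups, and fell with a log2 fold change of -0.96 and -1.14. The DLC1 call of the first was lost without DLC1 guide 1 (adjusted p = 0.0719). The PHF5A calls of both were kept in all 15 alternatives. Those of chr33:7199475-7208985 (-0.67) and chr33:7207362-7211285 (-0.69) were lost without either PHF5A guide or control 1 and with scaling by library size alone. The call of chr33:7199475-7208985 was also lost without control 2. The run between 7246477 and 7259791 held 3 overlapping members, with falls of -0.87, -1.12 and -1.16 in PHF5A knockout, of which chr33:7250750-7259791 (33.3 and 39.97 CPM in DLC1 knockout, 27.7 and 26.9 CPM in PHF5A knockout and 37.4 and 45.4 CPM in SF3B1 knockout, against 56.3 and 46.4 CPM in control) kept its call in all 15 alternatives.

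Outside runs, members of chromosome 33 with low levels also changed. chr33:6750283-6759301 had 7.68 and 8.03 CPM in DLC1 knockout, 6.23 and 6.72 CPM in PHF5A knockout and 4.57 and 4.01 CPM in SF3B1 knockout, against 1.48 and 1.75 CPM in control, and rose by 2.10 ± 0.28 (SE; adjusted p = 0.0035) for DLC1, 1.75 ± 0.28 (SE; adjusted p = 0.00271) for PHF5A and 1.14 ± 0.29 (SE; adjusted p = 0.0282) for SF3B1 knockout. chr33:5980960-5987994 had 9.19 and 7.76 CPM in DLC1 knockout, 4.78 and 5.10 CPM in PHF5A knockout and 8.80 and 8.02 CPM in SF3B1 knockout, against 1.69 and 2.44 CPM in control, and rose by 1.84 ± 0.28 (SE; adjusted p = 0.00553) for DLC1, 0.999 ± 0.28 (SE; adjusted p = 0.0245) for PHF5A and 1.75 ± 0.29 (SE; adjusted p = 0.00801) for SF3B1 knockout. In both genes all 6 knockout libraries were above both controls, and both DLC1 calls were kept in all 15 alternatives. The SF3B1 call of the second was lost without SF3B1 guide 1 (adjusted p = 0.0554). In the other direction, chr33:5027575-5032132 had 9.47 and 10.2 CPM in DLC1 knockout, 6.67 and 6.46 CPM in PHF5A knockout and 8.41 and 9.73 CPM in SF3B1 knockout, against 17.4 and 17.3 CPM in control, and fell with a log2 fold change of -0.997, -1.65 and -1.20 in DLC1, PHF5A and SF3B1 knockout, and chr33:7088953-7095883 had 28.0 and 37.6 CPM in DLC1 knockout, 23.1 and 22.5 CPM in PHF5A knockout and 17.7 and 26.0 CPM in SF3B1 knockout, against 56.0 and 38.7 CPM in control, and fell with a log2 fold change of -1.30 in PHF5A and -1.37 in SF3B1 knockout. The SF3B1 call of chr33:7088953-7095883 was lost without SF3B1 guide 1 or control 1.

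The member with the most reads on chromosome 33 was not called. chr33:6249750-6250853 had 2705 and 1666 CPM in DLC1 knockout, 2207 and 4366 CPM in PHF5A knockout and 5151 and 6874 CPM in SF3B1 knockout, against 2707 and 6959.7 CPM in control. The 2 controls differed from each other by more than 2-fold, 3 of the 6 knockout libraries lay between them, and the adjusted p was 0.066, 0.192 and 0.958 in DLC1, PHF5A and SF3B1 knockout. Without this gene, chromosome 33 took 2.86% and 3.15% of nuclear counts in DLC1 knockout, 2.63% and 3.17% in PHF5A knockout and 2.85% and 3.32% in SF3B1 knockout, against 3.62% and 3.57% in control. With that gene left out, every knockout library was below both controls (exact permutation p = 0.0357, adjusted p = 0.0893).

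Longer members had higher fold changes than shorter ones in each knockout. The median log2 fold change of the 30 tested members over 30 kb came to 0.43 for DLC1, 0.78 for PHF5A and 0.68 for SF3B1 knockout, and that of the 100 members of up to 3 kb was -0.37, -0.43 and -0.14. Over all tested genes on nuclear chromosomes the medians were 0.38, 0.45 and 0.21 over 30 kb and -0.32, -0.39 and -0.26 up to 3 kb, so the order by span was also that of the rest of the genome. Among the members over 30 kb, 4 rose and 0 fell in DLC1, 16 rose and 1 fell in PHF5A and 13 rose and 0 fell in SF3B1 knockout. Of all 4983 tested nuclear genes over 30 kb, 932 rose and 110 fell in DLC1, 1534 rose and 207 fell in PHF5A and 829 rose and 136 fell in SF3B1 knockout. Members called were thus 13.3%, 56.7% and 43.3% of the class, against 20.9%, 34.9% and 19.4% of all such genes. The PHF5A share includes chr31:664577-894140, which reached 40 reads only through the groups where it is high, and is a description. Among members of up to 3 kb, 10 rose and 17 fell, 14 rose and 25 fell, and 3 rose and 9 fell, in the same order. These were 27%, 39% and 12% of the class, against 21.1%, 33.7% and 12.9% of all 1512 nuclear genes of that span. Differences from the rest of the genome were not tested. Since counts may include reads in introns, a higher count need not be more spliced RNA. The part of such reads in the order by span was not tested.

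The same difference was seen in single libraries. The median over the members over 30 kb minus that over members of up to 3 kb, in log2 CPM relative to the mean of the controls, was 0.96 and 0.50 in DLC1 knockout, 1.27 and 0.97 in PHF5A knockout and 1.22 and 0.67 in SF3B1 knockout, against 0.14 and -0.14 in control. Each knockout library was above both controls, and guide 1 was above guide 2 in all 3 knockouts. The control values are symmetric about 0 by construction, and the members over 30 kb include the 7 overlapping ones of chromosome 31.

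**Figure D5:**
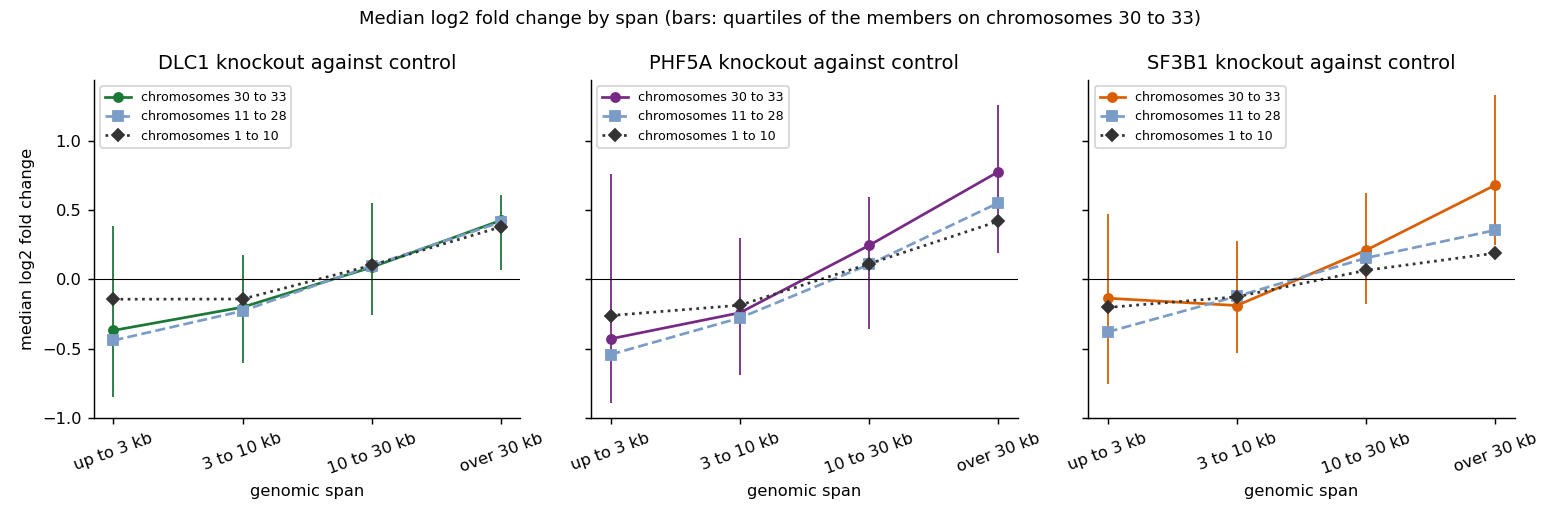
Median log2 fold change (y axis) by class of genomic span (x axis) in each knockout against control, for tested genes on chromosomes 30 to 33, 11 to 28 and 1 to 10, with bars for the quartiles of the members. On all 3 sets of chromosomes the medians of genes over 10 kb are above those of shorter genes, and for the members over 30 kb they are 0.43, 0.78 and 0.68 in DLC1, PHF5A and SF3B1 knockout.

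Between knockouts few members differed. Between PHF5A and DLC1 knockout 0 members were called by edgeR, against 0.0064% of all genes, while 54 of 476 had an unadjusted p under 0.05, against 1906 of all 15619 genes, and DESeq2 called 13. Between SF3B1 and DLC1 knockout 15 members were higher and 12 lower, 5.67%, against 4.98% of all genes (2.52% higher and 2.46% lower). Between SF3B1 and PHF5A knockout 1 was higher and 6 lower, 1.47%, against 1.11% of all genes (0.365% higher and 0.749% lower). No run of members was called between knockouts, against 0.128% of all genes in runs between SF3B1 and DLC1 knockout. The 27 calls between SF3B1 and DLC1 knockout were 0 without DLC1 guide 2 or SF3B1 guide 2, 1 without SF3B1 guide 1, 60 without PHF5A guide 1 and 55 without PHF5A guide 2, and the 7 between SF3B1 and PHF5A knockout were 0 without either SF3B1 guide, 2 without either DLC1 guide, 4 without PHF5A guide 2 and 3 without either control. In each of these cases the share called of all genes tested moved in the same direction. With DESeq2 29 members were called between SF3B1 and PHF5A knockout, 15 higher and 14 lower, against 4.23% of all genes. With scaling by library size alone 0 were higher and 3 lower, against 0.333% of all genes called. The 13 that DESeq2 called between PHF5A and DLC1 knockout stood beside 1.79% of all genes.

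Of the members that differed between knockouts, chr33:6621303-6623010 had 32.3 and 32.7 CPM in DLC1 knockout, 34.4 and 39.9 CPM in PHF5A knockout and 13.04 and 13.5 CPM in SF3B1 knockout, against 16.1 and 15.5 CPM in control. The 4 DLC1 and PHF5A knockout libraries were high, and the SF3B1 knockout libraries lay below control. These 4 libraries also had the highest total counts, and the part of depth was not tested. This member was lower in SF3B1 than in PHF5A knockout (log2 difference -1.50, adjusted p = 0.0111) and rose in DLC1 and PHF5A knockout against control by 0.86 and 0.98. In contrast, chr33:5048685-5068444 had 28.3 and 24.4 CPM in DLC1 knockout, 16.8 and 13.1 CPM in PHF5A knockout and 29.8 and 28.9 CPM in SF3B1 knockout, against 37.5 and 31.7 CPM in control, with PHF5A knockout the lowest group, and its fall in PHF5A knockout was -1.46 ± 0.19 (SE; adjusted p = 0.00166).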

How the data were processed

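RNA from about 50000 GFP+ cells per treatment was sequenced after stranded mRNA library preparation, per the labels' protocols. The deposited table holds raw counts of reads per gene, made by the authors on build GRCg6a with STAR 2.7.11b and featureCounts 1.5.3 after FastQC 0.12.1 and Trimmomatic 0.39, per the submitters' processing notes. The sources used here give neither the annotation release nor the strand setting. None of the 25635 genes of the RefSeq annotation (GRCg7b) matched a deposited ID.

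Groups came from the genotype labels. Counts were fitted with edgeR 4.0.16 (filterByExpr, TMM scaling, quasi-likelihood test with its default prior count) in R 4.3.3. All 8 libraries were in 1 model of 4 groups and 7 comparisons, with p-values adjusted by Benjamini-Hochberg over all genes tested. Fold changes are knockout over control, or the first-named knockout over the second. Values in log2 CPM used a pseudocount of 2 reads. Chromosome shares used a two-sided exact permutation test. Alternatives were median-ratio size factors, library size alone, mitochondrial counts removed first, no filter, DESeq2 1.42.0, limma-voom (limma 3.58.1), a replicate block and each library left out, in all 15 per named call. The fitting script was tested on simulated data. No count column was left out, and libraries of a group differed by more than sampling noise (chi-square per degree of freedom 40.6 to 191).

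The members and lists were chosen with earlier results of these data known, and the runs, span classes and calls of single members were added to the alternatives after the data were seen. Genes were named by rule: on each chromosome the 3 members of highest mean CPM; in each comparison up to 5 rising and 5 falling called members of largest log2 fold change, averaging 5 CPM or more in either group, with every library of the knockout above both controls or every one below; every member of a run; 2 on either side of the limit of 40 reads; and up to 3 per direction between knockouts.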

Additional observations from a re-analysis of the deposited data

Results flagged for a closer look

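The members below had an effect that differed between knockouts by the test of that difference itself (edgeR, Benjamini-Hochberg adjusted p under 0.05 over all genes tested). Differences are on the log2 scale, SF3B1 over the other knockout. The members are those of largest difference by the naming rule, with no more than 3 in each direction per comparison.

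Between SF3B1 and DLC1 knockout, chr33:2861515-2864205 differed by 4.64, with 10 and 9 reads in SF3B1 knockout, against 0 and 1 in DLC1 knockout. This is a ratio of CPM of 34.8 with a 95% counting interval of 5.54 to 1448. This feature has 40 reads in all, with 8 and 9 in PHF5A knockout, against 1 and 2 in control, so it reached the limit of 40 reads only through the groups where it is high, and its difference is a description. chr33:6533415-6533481, a feature of 67 bases, differed by 3.26, with 2.48 and 5.52 CPM in SF3B1 knockout, against 0.546 and 0.239 CPM in DLC1 knockout. chr33:7585933-7590697 differed by 2.78, with 35.8 and 13.01 CPM in SF3B1 knockout, against 5.01 and 1.71 CPM in DLC1 knockout.

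In the other direction, chr30:1057888-1059898 differed by -2.19, with 6.83 and 6.11 CPM in SF3B1 knockout, against 29.2 and 26.7 CPM in DLC1 knockout. chr33:4835634-4838197 differed by -1.87, with 1.35 and 1.12 CPM, against 3.40 and 5.09 CPM, and chr33:5570577-5572770 by -1.79, with 1.52 and 2.17 CPM, against 6.01 and 6.05 CPM, in SF3B1 and DLC1 knockout in that order. All 6 calls were lost on leaving out either SF3B1 guide or DLC1 guide 2 (highest adjusted p 0.293), the first 2 also without DLC1 guide 1.

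Between SF3B1 and PHF5A knockout, chr33:5048685-5068444 differed by 0.96 (adjusted p = 0.0488), with 29.8 and 28.9 CPM in SF3B1 knockout, against 16.8 and 13.1 CPM in PHF5A knockout, and this call was lost in 10 of 15 alternatives, on leaving out any 1 of the 8 libraries among them (adjusted p up to 0.291). chr30:1057888-1059898 differed by -2.18, with 6.83 and 6.11 CPM, against 21.6 and 36.6 CPM. chr33:6621303-6623010 differed by -1.50, with 13.04 and 13.5 CPM, against 34.4 and 39.9 CPM. chr33:7612272-7616683 differed by -1.31, with 41.3 and 38.1 CPM, against 78.9 and 116 CPM, in the same order of groups. These 3 were lost on leaving out either SF3B1 guide, the last also without either DLC1 guide.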

How the results depend on the processing

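The limits of these results are the 2 libraries per group, the 2 controls shared by all comparisons, and a depth of 14200279 to 31617387 nuclear counts, at which 3 reads are 0.0949 to 0.211 CPM. Counts of members called moved by over 1.5 times in the following cases. With the 196 members that overlap another feature left out, 285 tested members remained, against 476 in the main fit. Of the 285, those called were 66 for DLC1, 98 for PHF5A and 36 for SF3B1 knockout and 98 for the mean. Of the 476 they were 105, 171, 69 and 168. Between SF3B1 and DLC1 knockout 17 of the 285 were called, against 27 of the 476, and between SF3B1 and PHF5A knockout 4, against 7. The fit and its share called of all genes were the same. In SF3B1 knockout, scaling by library size alone gave 129, DESeq2 127 and no filter 153, against 25.3%, 22.4% and 17.9% of all genes in that fit. Between PHF5A and DLC1 knockout, DESeq2 gave 13 and no filter 23 (1.79% and 3.18% of all genes). Between SF3B1 and DLC1 knockout, library size gave 17, DESeq2 65 and no filter 86 (2.11%, 11.7% and 11.4% of all genes). Between SF3B1 and PHF5A knockout they gave 3, 29 and 50 (0.333%, 4.23% and 5.00% of all genes). Members in runs numbered 35 with no filter in DLC1 knockout and 57 in PHF5A knockout. In SF3B1 knockout they numbered 23 with library size, 13 with DESeq2, 0 with limma-voom and 13 with no filter, and for the mean 44 with library size and 52 with no filter. The causes were not tested, apart from the smaller number of members tested without overlapping ones.

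The labels do not say that same-numbered libraries share a source. Correlations of their deviations from the group means were -0.229 to 0.289 between groups, which does not settle whether they do. Mitochondrial share was lower with guide 1 than with guide 2 in each knockout, and higher in control 1 than in control 2. The main fit did not use the numbers as pairs. A fit with the replicate block called 155 members in DLC1, 213 in PHF5A, 149 in SF3B1 knockout and 215 for the mean, 0 between PHF5A and DLC1, 62 between SF3B1 and DLC1 and 29 between SF3B1 and PHF5A knockout, and placed 22, 56, 14 and 54 members in runs in DLC1, PHF5A and SF3B1 knockout and for the mean. Of all genes tested, the fit with the block called 26.5%, 37.4%, 25.9%, 36.8%, 0.0704%, 11.7% and 3.74% in the same order of comparisons.

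Leaving out 1 library at a time gave 8 to 134 members called in DLC1 knockout, 88 to 167 in PHF5A knockout, 2 to 115 in SF3B1 knockout and 56 to 201 for the mean. It gave 0 to 7 between PHF5A and DLC1, 0 to 60 between SF3B1 and DLC1 and 0 to 9 between SF3B1 and PHF5A knockout. Members in runs numbered 0 to 21, 6 to 42, 0 to 4 and 3 to 51 in DLC1, PHF5A and SF3B1 knockout and for the mean. The median log2 fold change of members over 30 kb minus that of members up to 3 kb was 0.53 to 0.97, 0.94 to 1.28, 0.64 to 1.19 and 0.78 to 1.09 in the same order. Knockout minus control shares were -0.246 to -0.161 percentage points for chromosome 30, 0.0218 to 0.0400 for chromosome 31, 0.0189 to 0.0399 for chromosome 32, -0.890 to -0.506 for chromosome 33 and -0.996 to -0.711 for their sum. The median log2 CPM of the tested members moved opposite to the summed share on chromosome 30 (0.123), on chromosome 33 (0.429) and over all 4 (0.286). As a share of all counts the differences were -0.0661, 0.0471, 0.0669, -0.203 and -0.155 points for chromosomes 30 to 33 and their sum.

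Of 133 calls of single named members, 0 were lost with mitochondrial counts removed first, 1 with no filter, 2 with the block, 8 with median-ratio size factors, 9 with limma-voom and 24 with scaling by library size alone, and 7 of 132 with DESeq2. Leaving out 1 library lost 14 (PHF5A guide 2) to 70 (control 2) of them.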
